A study of Mus musculus with 6 samples.

Results

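The genes described here carry fatty acids into heart muscle, store them as droplets, or are known targets of the peroxisome proliferator-activated receptors (PPARs). There were 10 of them, Cd36, Fabp3, Lpl, Plin2, Plin5, Angptl4, Ucp3, Pdk4, Acot1 and Acot2, taken by symbol from the 54532 genes of the table. Each symbol stood on a single gene ID. They were measured by RNA-seq of polyadenylated RNA from whole hearts of mice aged 4 days. In 3 hearts the genotype was Wtapflox/flox, called Wtap-flox here, and the 3 others were labelled Wtap-CKO, the conditional knockout of that gene. WTAP is needed by the methyltransferase complex that places N6-methyladenosine on RNA. Per the labels' protocol the libraries of a group are biological replicates made independently, and neither group has a labelled treatment. The sources used here give neither the Cre driver, nor the deleted exons, nor the sex of the animals.

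The heart of the newborn changes from glucose and lactate to fatty acids as its main fuel. Lipoprotein lipase frees fatty acids from circulating triglyceride at the capillary wall, CD36 takes them up, and the heart fatty acid binding protein FABP3 carries them through the cytosol. Fatty acids that are not burned at once are stored as triglyceride in droplets coated by perilipins. Fatty acids also act as ligands of PPAR receptors, which pair with a retinoid X receptor and raise genes of lipid use such as Pdk4, Ucp3, Angptl4 and the acyl-CoA thioesterases.

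The receptor pair is known to bind a direct repeat called DR1, in which AGGTCA is followed by any single base and then by AGGTCA again. RefSeq promoter windows of build GRCm38.p6, from 250 bases before to 50 after a gene start, were found for 8 of the 10 genes, with 2 windows for Plin5. Windows for Lpl and Angptl4 were not used here. Allowing 2 differing letters among the 12 fixed letters, on both strands, the windows of Plin2, Cd36 and Ucp3 each held 1 match, and those of Fabp3, Pdk4, Acot1, Acot2 and Plin5 held none. Such a match was present in 3.86% of all 32851 windows. The exact core AGGTCA, which may overlap a DR1 match, was present on either strand in the windows of Plin2, Cd36, Ucp3 and Plin5 and in 16.3% of all windows. The stretches around the 3 matches are shown because they are the closest to a DR1 in these windows. Each is written 5′ to 3′ on the strand of its gene, with the match in capitals. In Plin2 and Cd36 the match read as DR1 on the opposite strand.
Plin2 (chr4:86670248-86670308, minus strand): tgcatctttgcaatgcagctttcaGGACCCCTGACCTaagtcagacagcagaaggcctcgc
Cd36 (chr5:17835923-17835983, minus strand): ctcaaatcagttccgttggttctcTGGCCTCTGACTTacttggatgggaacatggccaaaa
Ucp3 (chr7:100472916-100472976, plus strand): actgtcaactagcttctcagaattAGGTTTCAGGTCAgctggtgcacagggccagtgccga
The match ended 213 bases before the start in Plin2, 51 bases before it in Cd36 and 39 bases before it in Ucp3. The Cd36 window, 17835847 to 17836146, lies inside the gene as annotated, which on the minus strand begins at 17888801. Its start is therefore an internal one. A match of letters is a description and not a measured binding site.

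Levels are given in FPKM, which divides the reads of a gene by its length and by a library size. In the deposited values that size matched median-ratio size factors of the libraries and not their totals of reads. Libraries held 15649028 to 18045599 reads assigned to genes, and the 10 genes rested on 258 (Ucp3 in Wtap-flox 3) to 84795 reads (Fabp3 in Wtap-CKO 3). Wtap itself stood at 7.77, 8.74 and 10.9 FPKM in Wtap-flox and at 9.32, 7.75 and 9.46 FPKM in Wtap-CKO (log2 fold change -0.04, adjusted p = 0.893, limma; exact two-sided permutation test, p = 0.9, where 0.1 is the smallest that 3 against 3 allows). Array weights and leaving out Wtap-flox 3 or Wtap-CKO 2 turned that sign. Whole-gene values need not fall when some exons are deleted, so they do not check the labels, and every direction below is that of the labels. Cardiomyocyte markers were high in each library, with a summed level of 8 markers between 8716 and 11570 FPKM. On the second principal component, which held 20.4% of the variance, Wtap-CKO 3 stood apart from the other 2 Wtap-CKO libraries. Without it the same 3 genes as below were called higher (adjusted p = 0.00270 for Acot1, 0.00799 for Acot2 and 0.0341 for Plin2, limma) and none lower.

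Of the 10 genes, 3 rose in the libraries labelled Wtap-CKO and none fell, at an adjusted p below 0.05 by limma over all 12568 genes that averaged 1 FPKM or more. All 10 were tested. Among all tested genes 9.91% rose and 6.69% fell. Acot1 rose 2.58-fold, Acot2 1.64-fold and Plin2 1.53-fold, as ratios of mean FPKM. Angptl4 and Pdk4 had higher means without passing the test, and Plin5 had a lower one. The groups did not overlap in 6 of the 10 genes, with Wtap-CKO higher in 5 and lower in 1, against 19.8% and 17.3% of all tested genes. Cd36, Lpl, Fabp3 and Ucp3 did not pass either, and their groups overlapped. The median log2 fold change of the 10 genes was 0.58, beside 0.00 for all tested genes. The 10 genes were chosen with earlier results of these data known. Their counts and median therefore describe them and do not test the group. As deposited 59.7% of all called genes were higher. This was 33.1% when each library was rescaled to a fixed total (TPM), which shifts the median gene by -0.14, and 32.5% when mitochondrially encoded genes were left out of that total, which shifts it by -0.14 as well. With either total Acot1 alone of the 10 rose, and Plin5 fell.

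**Figure D1:**
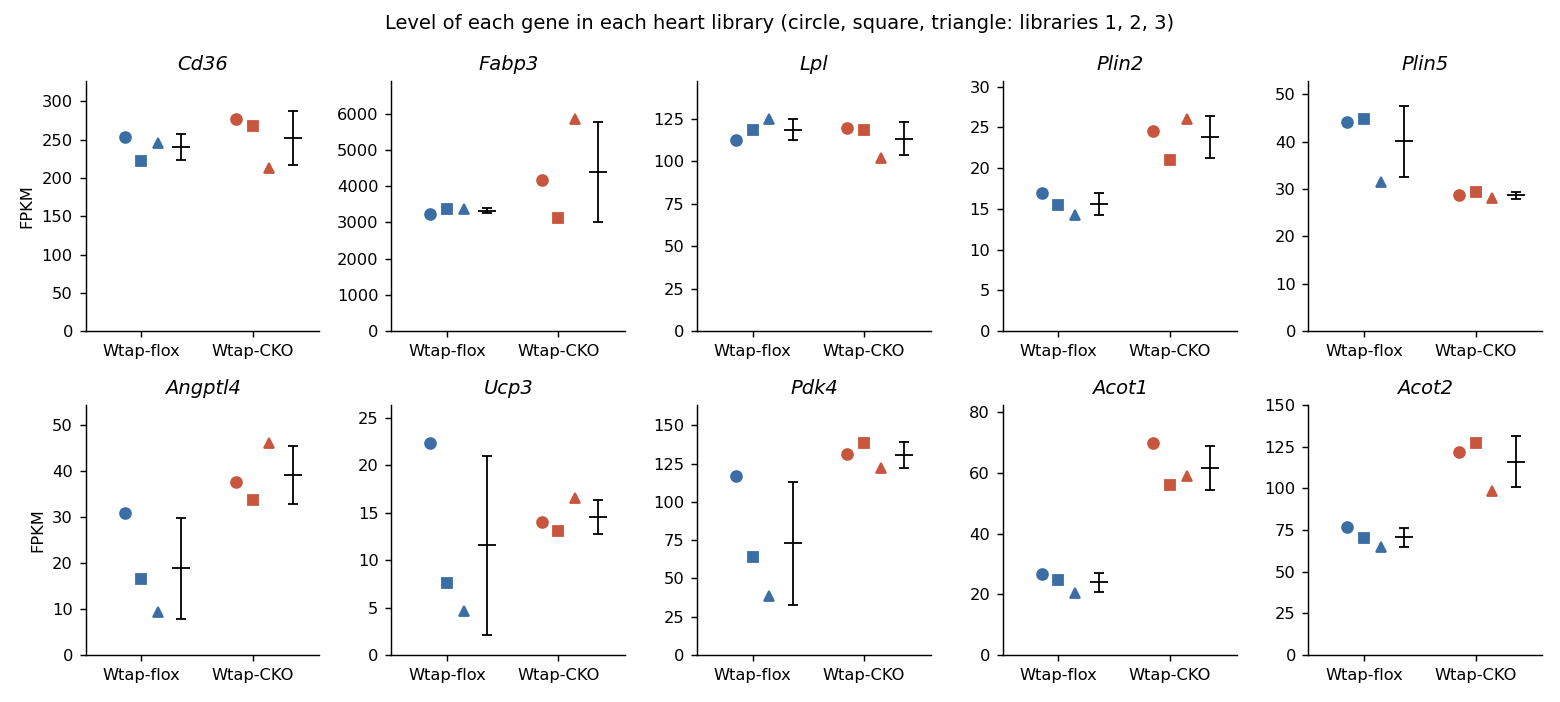
Level in FPKM of each of the 10 genes in 3 Wtap-flox (blue) and 3 Wtap-CKO (orange) heart libraries, with the mean and SD of each group in black. Acot1, Acot2, Plin2, Angptl4 and Pdk4 lie higher in all Wtap-CKO libraries than in any Wtap-flox library, Plin5 lies lower, and Wtap-flox 1 (circle) is the highest of its group for Angptl4, Ucp3 and Pdk4.

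**Figure D2:**
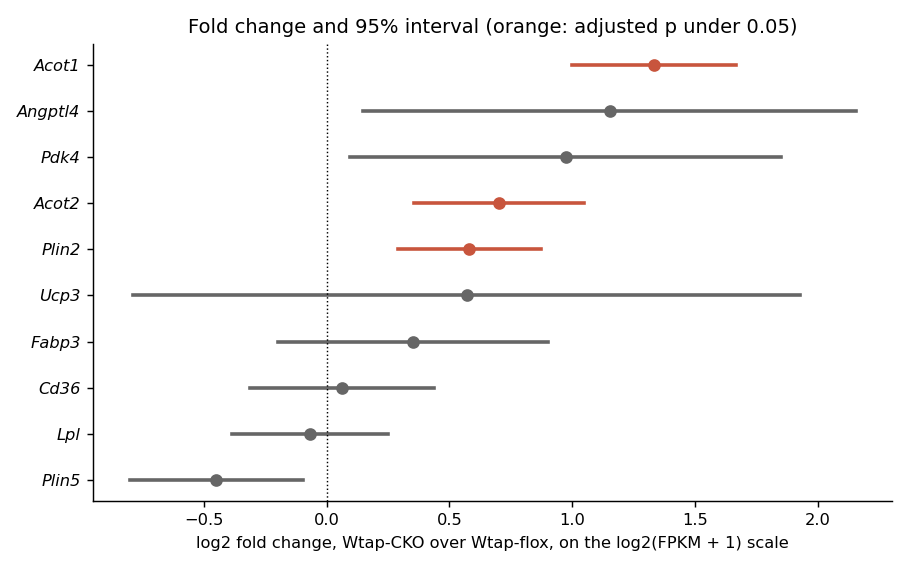
Log2 fold change of Wtap-CKO over Wtap-flox with its 95% interval from limma, on the log2(FPKM + 1) scale. The genes that passed the test, in orange, are Acot1 (1.33), Acot2 (0.70) and Plin2 (0.58), and the interval of Ucp3 is the widest, from -0.79 to 1.93. The sign of Cd36 turns with quantile, TPM and mitochondria-free scaling and without Wtap-CKO 1, and that of Lpl turns without Wtap-CKO 3.

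The genes of uptake did not pass the test. Cd36, the fatty acid translocase of the cell membrane (ENSMUSG00000002944, chromosome 5, 17781690 to 17888801, minus strand, GRCm38), stood at 254, 222 and 245 FPKM in Wtap-flox and at 277, 267 and 212 FPKM in Wtap-CKO. The lowest of the 6 values was that of Wtap-CKO 3, and the groups overlapped. The difference on the log2 scale, 0.06, had a 95% interval reaching from -0.31 to 0.44 (adjusted p = 0.835, limma). Its sign turned with quantile (-0.17), TPM (-0.11) and mitochondria-free scaling (-0.12) and without Wtap-CKO 1 (-0.011).

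Lpl, the lipase that frees fatty acids from lipoproteins (ENSMUSG00000015568, chromosome 8, 68880491 to 68907448), stood at 112, 118 and 125 FPKM in Wtap-flox and at 119, 118 and 102 FPKM in Wtap-CKO. Here too the groups overlapped, with a log2 fold change of -0.07, between limits of -0.39 and 0.25 (adjusted p = 0.780, limma). The sign turned without Wtap-CKO 3 (0.0055). The intervals of Cd36 and Lpl leave out changes of 0.5 or more on the log2 scale in either direction, but they do not show that the genes were unchanged.

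Fabp3 (ENSMUSG00000028773, chromosome 4, 130308595 to 130315463) was by far the most abundant of the 10, ranking 11 among all tested genes in Wtap-flox. It stood at 3237, 3368 and 3373 FPKM in Wtap-flox and at 4182, 3119 and 5844 FPKM in Wtap-CKO. The Wtap-flox values lay close together, while those of Wtap-CKO lay on both sides of them. On the log2 scale the difference was 0.35, between -0.20 and 0.90 (adjusted p = 0.362, limma). The gene model of Fabp3 is short, 823 bases, and short genes as a class were also higher in Wtap-CKO 3. The median gene under 1 kb stood 0.23 above the mean of the other 2 Wtap-CKO libraries on the log2 scale, against -0.10 for genes of 4 kb and over. The part of gene length in the Fabp3 value was not tested. The locus overlaps Zcchc17 and Gm10570 on the opposite strand, at means of 6.60 and 1.20 FPKM over the 6 libraries, and the sources used here do not say whether reads were counted by strand.

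Of the droplet coat genes, Plin2 rose and Plin5 did not pass. Plin2, the perilipin found on droplets in most cell types (ENSMUSG00000028494, chromosome 4, 86648386 to 86670060, minus strand), stood at 17.0, 15.5 and 14.3 FPKM in Wtap-flox and at 24.6, 20.9 and 26.0 FPKM in Wtap-CKO. The 2 groups did not overlap, as in 37.1% of all tested genes counted in either direction. Plin2 rose by 0.58 on the log2 scale, between limits of 0.29 and 0.87 (adjusted p = 0.0175, limma). Plin2 missed the threshold without Wtap-flox 2 (adjusted p = 0.0660), Wtap-flox 3 (0.0660) or Wtap-CKO 1 (0.0656), in fits that have fewer samples, without a filter (0.0532) and with TPM (0.0530) or mitochondria-free scaling (0.0601).

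Plin5, the perilipin of oxidative muscle that tethers droplets to mitochondria (ENSMUSG00000011305, chromosome 17, 56111601 to 56117596, minus strand), stood at 44.1, 44.8 and 31.4 FPKM in Wtap-flox. The Wtap-CKO hearts had 28.7, 29.5 and 28.0 FPKM, below the lowest Wtap-flox value. The gap to Wtap-flox 3 was small beside the spread of Wtap-flox, and the log2 fold change of -0.45 (interval -0.80 to -0.10) did not pass (adjusted p = 0.0833, limma). Plin5 passed without Wtap-flox 3 (adjusted p = 0.0319), with array weights (0.0187), with limma-voom on recovered reads (0.0490) and with quantile (0.0449), TPM (0.0337) or mitochondria-free scaling (0.0300), in each case as lower. Within a heart, where scaling between libraries cancels, Plin5 stood 2.20 to 2.89 times above Plin2 in Wtap-flox and 1.08 to 1.41 times above it in Wtap-CKO. Plin4, a perilipin gene 1797 bases away from Plin5, stood at 19.0, 22.1 and 12.9 against 15.1, 21.2 and 24.5 FPKM and did not pass.

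Pdk4, Angptl4 and Ucp3 shared a pattern within the Wtap-flox group. Pdk4, the kinase that switches off pyruvate dehydrogenase and so spares glucose (ENSMUSG00000019577, chromosome 6, 5483351 to 5496309, minus strand), stood at 117, 63.8 and 38.2 FPKM in Wtap-flox 1 to 3. The Wtap-CKO hearts had 131, 139 and 122 FPKM. Angptl4, a secreted inhibitor of lipoprotein lipase (ENSMUSG00000002289, chromosome 17, 33773750 to 33781575, minus strand), stood at 30.8, 16.5 and 9.29 FPKM in the same Wtap-flox libraries and at 37.6, 33.6 and 46.0 FPKM in Wtap-CKO. In both genes Wtap-flox 1 was the highest of its group and close to the Wtap-CKO values, which all lay above it. Ucp3, an uncoupling protein of the inner mitochondrial membrane (ENSMUSG00000032942, chromosome 7, 100472990 to 100486432), stood at 22.4, 7.63 and 4.64 FPKM in Wtap-flox. Its Wtap-CKO values of 14.1, 13.1 and 16.5 FPKM lay between Wtap-flox 1 and the other Wtap-flox libraries.

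The highest Wtap-flox value was 3.06 times the lowest for Pdk4, 3.31 times for Angptl4 and 4.81 times for Ucp3. Ratios of at least 3 within Wtap-flox were found in 2.53% of all tested genes. Within Wtap-CKO the ratios of these genes were 1.14, 1.37 and 1.26, and 3.99% of all tested genes reached 3 there. With all 6 libraries the log2 fold changes were 0.97 for Pdk4 (interval 0.09 to 1.85, adjusted p = 0.125, limma), 1.15 for Angptl4 (interval 0.15 to 2.16, adjusted p = 0.116) and 0.57 for Ucp3 (interval -0.79 to 1.93, adjusted p = 0.530). None of the 3 passed. Without Wtap-flox 1 all 3 passed as higher, with log2 fold changes of 1.38 for Pdk4, 1.57 for Angptl4 and 1.15 for Ucp3 (adjusted p = 0.0113, 0.0113 and 0.0142), and 6 of the 10 genes were then called higher, beside 5.7% of 12538 tested genes. Wtap-flox 1 was one of 3 control hearts and nothing in its label sets it apart, so these values describe the weight of that library and do not replace the fit on all 6. Array weights also called Pdk4 (adjusted p = 0.0426) and Angptl4 (0.0437) higher.

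The summed level of red blood cell markers ran in the opposite order in the Wtap-flox libraries. The sum of 7 such markers was 661, 1545 and 2173 FPKM in Wtap-flox 1 to 3, carried mainly by the globin genes Hba-a1 and Hbb-bs. Hba-a2 (31.9, 60.4 and 14.7 FPKM) and Hbb-bt (27.2, 89.1 and 81.6 FPKM) did not follow that order. In Wtap-CKO it was 1227, 1461 and 2208 FPKM, and the 2 groups overlapped. Its part in the values of Pdk4, Angptl4 and Ucp3 was not tested. Ucp2, the uncoupling protein gene that starts 6904 bases beyond Ucp3, was also highest in Wtap-flox 1, at 41.3 FPKM against 26.4 and 27.7 FPKM in Wtap-flox and 22.3 to 25.9 FPKM in Wtap-CKO, and did not pass (log2 fold change -0.35, adjusted p = 0.212, limma). The antisense gene Gm10603 overlaps Ucp3, at a mean of 0.714 FPKM.

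**Figure D3:**
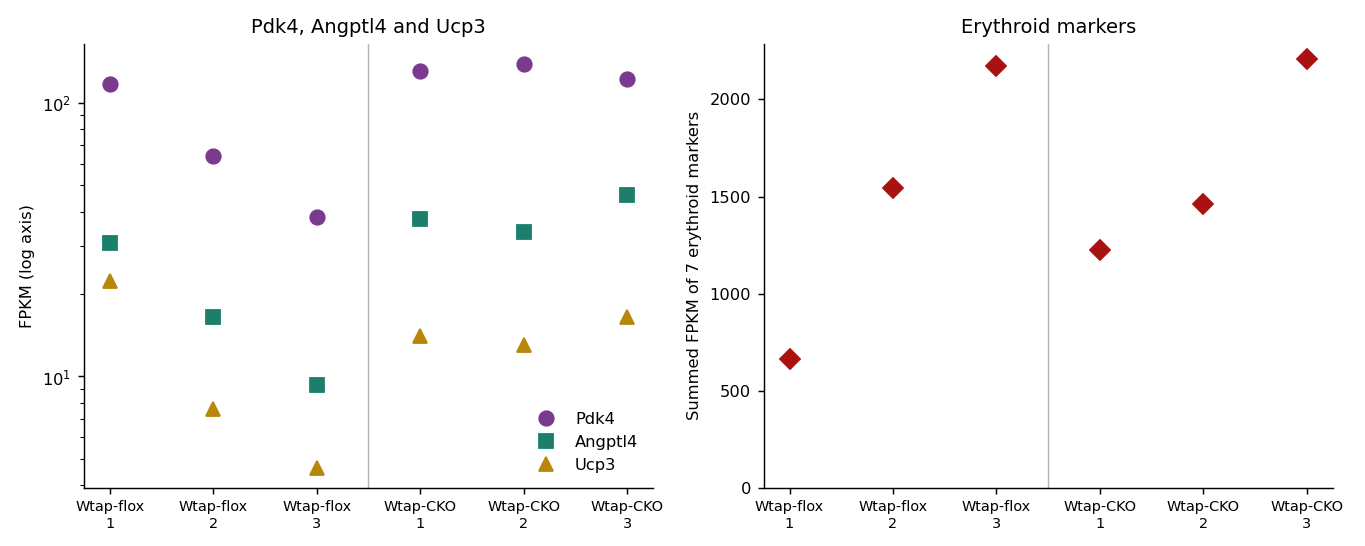
Left, FPKM on a log axis of Pdk4, Angptl4 and Ucp3 in each library; right, summed FPKM of 7 erythroid markers. Pdk4 runs from 117 to 38.2 FPKM over Wtap-flox 1 to 3 and stays between 122 and 139 FPKM in Wtap-CKO, while the erythroid sum is lowest in Wtap-flox 1 (661 FPKM).

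The thioesterase genes Acot1 and Acot2 rose together. Their products split long-chain acyl-CoA into free fatty acid and coenzyme A, ACOT1 in the cytosol and ACOT2 in mitochondria. Acot1 (ENSMUSG00000072949, chromosome 12, 84009490 to 84018371) stood at 26.6, 24.6 and 20.6 FPKM in Wtap-flox and at 69.9, 56.1 and 59.1 FPKM in Wtap-CKO. The lowest Wtap-CKO value was more than 2 times the highest Wtap-flox value. Acot1 rose by 1.33 on the log2 scale, between limits of 0.997 and 1.67 (adjusted p = 0.00111, limma). This adjusted p stayed between 7.29e-05 and 0.00984 over all alternatives run. Acot2 (ENSMUSG00000021226, chromosome 12, 83987861 to 83993873), which ends 15616 bases before Acot1 on the same strand, stood at 76.6, 70.5 and 64.8 FPKM in Wtap-flox and at 122, 127 and 98.5 FPKM in Wtap-CKO. These groups did not overlap either, and Acot2 rose by 0.70 on the log2 scale, between limits of 0.35 and 1.05 (adjusted p = 0.0163, limma). Acot2 missed the threshold without Wtap-flox 2 (adjusted p = 0.0645), Wtap-flox 3 (0.0661) or Wtap-CKO 1 (0.0683), with quantile normalization (0.103) and with TPM (0.0525) or mitochondria-free scaling (0.0590).

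Acot1 and Acot2 have closely similar coding sequences, so some reads of one may be counted for the other. In the GENCODE M39 transcripts these sequences are 1260 and 1362 bases long. Aligned, they were identical at 95.6% of the 1239 bases compared, with a longest identical run of 273 bases. Of the 150-base windows of the longest Acot1 transcript, the length of a sequenced read, 9.81% were found exactly in Acot2, and of those of Acot2 9.27% were found in Acot1. The 60 coding bases in which the pair differed most, at 13 bases, are shown because such differences are what tells the 2 genes apart in counting. Capitals mark the bases that differ, and positions count from the first base of each coding sequence.
Acot1 coding bases 823 to 882: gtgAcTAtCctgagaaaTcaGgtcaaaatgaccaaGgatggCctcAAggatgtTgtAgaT
Acot2 coding bases 946 to 1005: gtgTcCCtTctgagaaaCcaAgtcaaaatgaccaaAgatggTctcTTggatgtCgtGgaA
Summed, Acot1 and Acot2 stood at 103, 95.1 and 85.3 FPKM in Wtap-flox and at 192, 183 and 158 FPKM in Wtap-CKO. As a single feature in the fit the sum rose by 0.90 on the log2 scale (adjusted p = 0.00538, limma). The 2 genes are divided by different lengths, so this sum still depends in part on how reads were split. The share of Acot1 in the sum was 24.1% to 25.9% in Wtap-flox and 30.6% to 37.5% in Wtap-CKO.

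The 2 genes open a cluster of 6 thioesterase genes on chromosome 12, all on the plus strand. In all but Acot5, each Wtap-CKO value lay above each Wtap-flox value, as in 19.8% of all tested genes. Acot6, at the far end, rose from 0.778, 0.942 and 0.748 FPKM to 2.01, 1.88 and 1.64 FPKM (log2 fold change 0.64, adjusted p = 0.0118, limma), on 85 to 208 reads. The log2(FPKM + 1) scale understates a change at this level, and the ratio of means was 2.24. Acot3 and Acot4 lay under the mean of 1 FPKM needed for the test, at 0.520 ± 0.244 against 0.994 ± 0.241 FPKM and 0.287 ± 0.0817 against 0.468 ± 0.0629 FPKM (SD, n = 3). At a mean of at least 0.1 FPKM neither passed (adjusted p = 0.162 for Acot3 and 0.285 for Acot4). Acot5 had 3 reads in Wtap-CKO 1 and 0 in the other libraries. Outside the cluster, Acot9, a mitochondrial thioesterase, had a log2 fold change of 0.43 (adjusted p = 0.0502, limma), Acot7 one of 0.13 and Acot11 one of -0.22, and none passed.

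**Figure D4:**
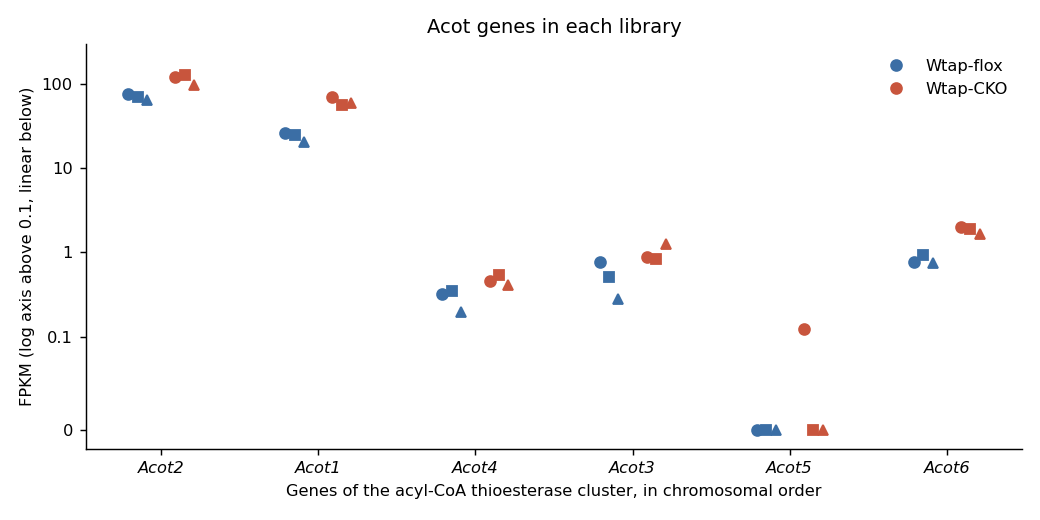
FPKM of the 6 Acot genes of the chromosome 12 cluster, in chromosomal order, in each Wtap-flox (blue) and Wtap-CKO (orange) library; the axis is a log scale above 0.1 and linear below. Wtap-CKO values lie above Wtap-flox values for all genes but Acot5, from under 1 FPKM (Acot4) to 127 FPKM (Acot2).

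The order of the 10 levels differed between groups. In Wtap-flox it ran Fabp3, Cd36, Lpl, Pdk4, Acot2, Plin5, Acot1, Angptl4, Plin2 and Ucp3. Neighbours from Lpl to Acot2 and from Acot1 to Ucp3 overlapped in their values, and the others did not. In Wtap-CKO it ran Fabp3, Cd36, Pdk4, Acot2, Lpl, Acot1, Angptl4, Plin5, Plin2 and Ucp3, where neighbours from Pdk4 to Lpl overlapped. Acot1 and Angptl4 thus stood above Plin5 in Wtap-CKO and below it in Wtap-flox. Levels of different genes depend on the gene models used. The length by which Lpl was divided is 2.43 times that of its longest coding GENCODE transcript and that of Acot1 1.72 times, against 0.822 to 1.05 times for the other 8 genes, so both may be set low beside the others.

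Over the 6 libraries Pdk4 correlated with Angptl4 at r = 0.97 and with Ucp3 at r = 0.90 (Pearson, log2(FPKM + 1)). The points share libraries and the difference between groups. The likeness of each gene was searched among 6981 protein coding genes whose mean was 5 FPKM or more. Those most like Angptl4 were Slc25a34 (r = 0.99), Pdk4 (0.97) and Rbm33 (0.96). Those most like Ucp3 were Lipe (0.97), which encodes hormone-sensitive lipase, Ganab (0.97) and Tmem119 (0.95). For Acot1 they were Fkbp14 (0.997), Slc39a13 (0.995) and P3h1 (0.992). The gene most like Acot2 was Slc38a10 (0.995), that most like Plin2 was P3h4 (0.996), and that most like Plin5 was Strn4 (0.983). For Pdk4 it was Tpp1 (0.980), for Fabp3 Tmem256 (0.997), for Cd36 Vwa5a (0.994) and for Lpl Rab21 (0.993). With 6 points such values describe likeness only.

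Beyond the 10 genes, a set of 6 lists with 118 further genes of lipid handling and PPAR control was examined, of which 95 were tested. Of these 2 rose and 6 fell, beside 9.91% and 6.69% of all tested genes, and their median log2 fold change was -0.02. The lists too were chosen with earlier results of these data known. Single values given below for genes and list medians are log2 fold changes. Both rises lay in lipid synthesis and acyl-CoA turnover (Agpat2 and Acot6), and the falls were spread over 4 lists. Without Wtap-CKO 2, 5 rose, where 1136 of all genes were called higher, against 1245 with all 6 libraries. With TPM or mitochondria-free scaling 14 fell, but 1601 and 1597 of all genes were then called lower, against 841 as deposited.

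Among 12 tested genes of triglyceride synthesis 1 rose and 2 fell, with a median of 0.06. Agpat2, which adds the second fatty acid to the glycerol backbone, stood at 8.08, 8.71 and 7.60 FPKM in Wtap-flox and at 20.7, 20.9 and 22.4 FPKM in Wtap-CKO (log2 fold change 1.29, adjusted p = 0.000461, limma). Dgat2, which adds the last, stood at 27.4, 26.2 and 26.3 FPKM in Wtap-flox and at 11.9, 10.8 and 12.5 FPKM in Wtap-CKO (log2 fold change -1.12, adjusted p = 0.000811). Both moved far beyond the spread of either group, in opposite directions. Lpin1, a phosphatidate phosphatase that also acts with PPAR alpha, stood at 5.77, 3.59 and 4.05 FPKM in Wtap-flox and at 2.04, 2.69 and 1.74 FPKM in Wtap-CKO, and fell by 0.78 on the log2 scale (adjusted p = 0.0181, limma). It missed the threshold without Wtap-flox 1 (adjusted p = 0.0527) or Wtap-CKO 1 (0.0588) and without a filter (0.0682). Dgat1, the other enzyme of the last step, had 0.28 (adjusted p = 0.214).

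Of 15 tested genes of fatty acid and lipoprotein uptake 1 fell and none rose, with a median of 0.10. Tcf15, which with Meox2 directs fatty acid transport in heart endothelium, stood at 27.0, 27.6 and 30.2 FPKM in Wtap-flox and at 14.2, 13.8 and 14.5 FPKM in Wtap-CKO, and fell by 0.95 on the log2 scale (adjusted p = 0.0014, limma). Meox2 had -0.38 (adjusted p = 0.248). Gpihbp1, which anchors lipoprotein lipase on capillaries, stood at 21.9, 24.5 and 22.0 against 31.2, 26.8 and 50.5 FPKM without passing (adjusted p = 0.0949), and Wtap-CKO 3 was again the highest. Of 12 tested genes of droplet coat and lipolysis none passed (median 0.16). The smallest p was that of Hilpda, an inhibitor of the lipase ATGL, with 0.56 (adjusted p = 0.0553), followed by Cidea, a droplet protein, with 0.45 (adjusted p = 0.0965). The first in the opposite direction was Plin3 with -0.32 (adjusted p = 0.139). Without Wtap-CKO 2, 1 gene of this list and 2 of the uptake list were called higher. Among 11 tested acyl-CoA synthetases and thioesterases Acot6 alone passed (median 0.13).

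A further list held PPAR targets and other genes of fatty acid oxidation and fuel choice. Whether each is a PPAR target in heart was not tested. Of its 28 tested genes 2 fell and none rose, with a median of -0.20. In 9 of them each Wtap-CKO value lay below each Wtap-flox value and in 3 above, against 17.3% and 19.8% of all tested genes. The number called lower was 7 with TPM, mitochondria-free or quantile scaling, where 1601, 1597 and 1006 of all genes were called lower. With array weights 5 were called lower and 3 higher, beside 1676 and 2056 of all genes. As deposited 841 of all genes were called lower and 1245 higher. Pdk2, the other main pyruvate dehydrogenase kinase of heart, stood at 78.0, 64.0 and 67.4 FPKM in Wtap-flox and at 34.4, 32.3 and 31.4 FPKM in Wtap-CKO (log2 fold change -1.07, adjusted p = 0.00162, limma). Its values in Wtap-CKO lay under those of Pdk4 in the same libraries, while in Wtap-flox 2 and 3 they lay at or above them. Retsat, a retinol saturase, stood at 10.4 to 12.1 FPKM in Wtap-flox and at 4.22 to 6.55 FPKM in Wtap-CKO, and fell by 0.92 on the log2 scale (adjusted p = 0.00486, limma). Klf15, a transcription factor of lipid use in muscle, had 0.61 in the other direction (adjusted p = 0.0547).

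Of 18 receptors, partners and coregulators 2 fell and none rose, Lpin1 being in this list as well. The number that fell was 1 without Wtap-flox 1 or Wtap-CKO 1, 4 without Wtap-CKO 2 and 5 with array weights. Of all genes 696 were called lower without Wtap-CKO 2 and 1676 with array weights, against 841 as deposited. Rxrg, a retinoid X receptor that partners PPARs, stood at 3.55, 3.53 and 3.71 FPKM in Wtap-flox and at 0.216, 0.395 and 0.469 FPKM in Wtap-CKO (log2 fold change -1.76, adjusted p = 0.000207, limma). That scale understates the change of a gene this low, as the ratio of means was 0.10. Rxra, with a mean of 15.3 FPKM in Wtap-flox the most abundant of the 3 retinoid X receptors, had -0.17 (adjusted p = 0.399). Ppara stood at 5.92, 6.09 and 3.87 against 2.58, 5.01 and 1.77 FPKM (log2 fold change -0.67, adjusted p = 0.178), and the coactivator gene Ppargc1a had 0.05 (adjusted p = 0.854). The first in the opposite direction was Med1 with 0.42 (adjusted p = 0.0779, limma), followed by Pparg with 0.40 (adjusted p = 0.0920). Both lay higher in all Wtap-CKO libraries. Of the 18 genes, 2 lay higher and 3 lower in this way, against 19.8% and 17.3% of all tested genes.

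**Figure D5:**
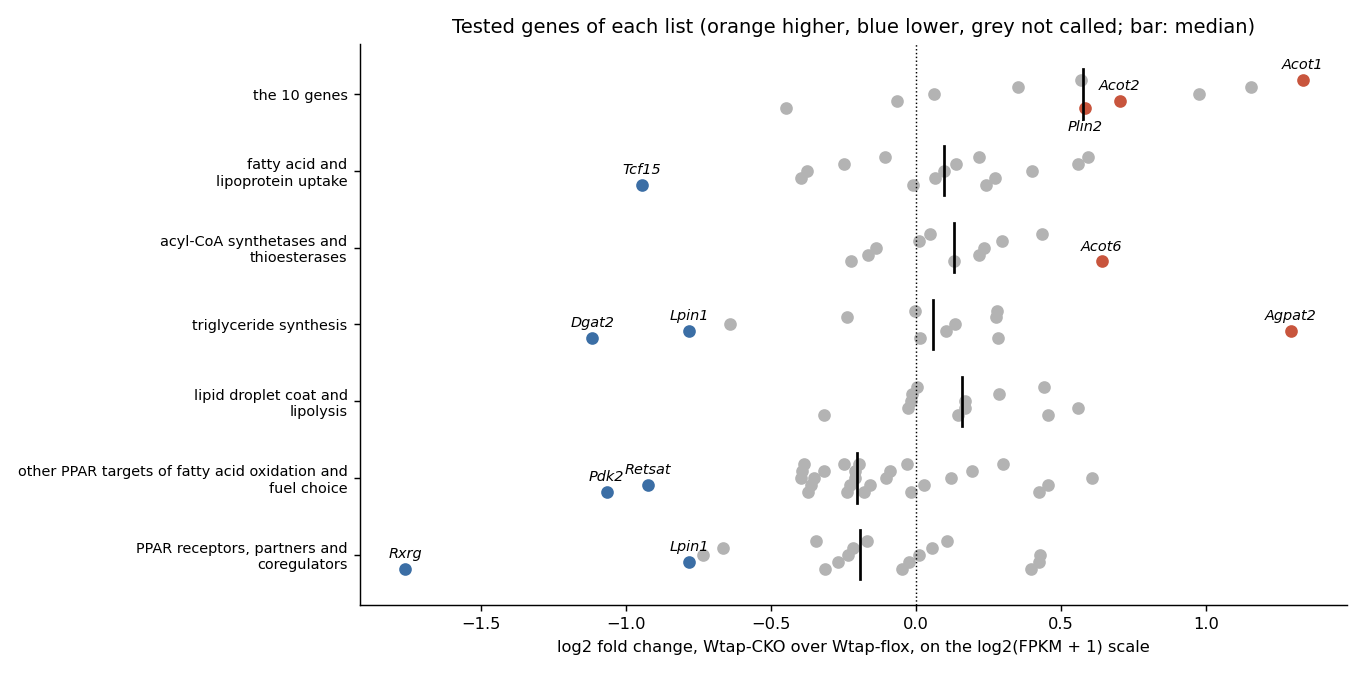
Log2 fold change on the log2(FPKM + 1) scale of the 10 genes and of the tested genes of 6 further lists, 1 point per gene, with called genes in colour and the list median as a black bar. Agpat2 (1.29) and Acot6 (0.64) lie to the right and Rxrg (-1.76), Dgat2 (-1.12), Pdk2 (-1.07), Tcf15 (-0.95), Retsat (-0.92) and Lpin1 (-0.78, in 2 lists) to the left.

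Whole hearts hold several cell types, and in bulk RNA fewer cells of a type and less RNA per cell cannot be told apart. Fat cells bear on these genes, since adipocytes express Cd36, Lpl, Plin2 and Pdk4. The defining markers Adipoq, Lep and Cfd were listed at 0 in all 6 libraries, as was Elovl3 of brown fat, and Ucp1 was above 0 in Wtap-flox 1 alone, at 0.0351 FPKM. Cox8b and Cox7a1, muscle isoforms of cytochrome oxidase that the list of 7 brown fat markers shares with heart, carried the sum of that list, which was 211 to 333 FPKM in Wtap-flox, 191 and 157 FPKM in Wtap-CKO 1 and 2 and 810 FPKM in Wtap-CKO 3, the library in which Fabp3 was highest. Of 9 white adipocyte markers in the table Lipe alone reached a mean of 1 FPKM, and their summed level was 5.83 to 9.46 FPKM in Wtap-flox and 8.44 to 8.91 FPKM in Wtap-CKO, almost all of it Lipe. The low markers Adrb3 and Tusc5, neither of them tested, lay higher in all Wtap-CKO libraries, at 0.0170 to 0.0932 against 0.192 to 0.275 FPKM and 0.248 to 0.376 against 0.619 to 0.961 FPKM. So did Dio2 of the brown fat list, at 1.06 against 1.78 FPKM, which did not pass (adjusted p = 0.0729, limma). Cidea, also in that list, stood at 16.0, 17.2 and 15.3 against 25.3, 17.2 and 26.1 FPKM. Its groups overlapped and it did not pass (log2 fold change 0.45, adjusted p = 0.0965, limma). Cox7a1 had -0.44 in the other direction (adjusted p = 0.784, limma). Among 9 endothelial markers Cldn5 and Emcn rose and Kdr fell, with summed levels of 350 to 363 against 395 to 417 FPKM. Cldn5 alone stood at 51.3 to 64.1 FPKM in Wtap-flox and at 112 to 126 FPKM in Wtap-CKO, which weighs heavily in that sum. Counting Pecam1, 3 endothelial markers lay higher in all Wtap-CKO libraries. With Tek and Tie1, 3 lay lower, against 19.8% and 17.3% of all tested genes. Among 7 macrophage markers C1qa, C1qb and Mrc1 rose, with sums of 35.9 to 40.2 against 52.1 to 84.3 FPKM. Among 7 fibroblast markers Dcn and Lum fell, with sums of 594 to 688 against 443 to 622 FPKM. The list did not move as one. Tcf21 lay higher in all Wtap-CKO libraries, at 14.4 to 15.4 against 17.2 to 17.9 FPKM, without passing (adjusted p = 0.213, limma). Col1a1 and Col1a2 had log2 fold changes of 0.01 and -0.004, and their groups overlapped. The part of fat cells, endothelial cells, macrophages and fibroblasts in the rises of Plin2, Acot1 and Acot2 was not tested.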

How the data were processed

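The authors deposited FPKM values per gene and library, and gene lengths. Per the submitters' processing notes, the tools were CASAVA, HISAT2 2.0.5, featureCounts 1.5.0-p3 and DESeq2 1.20.0. The notes name GRCm39, but 94.9% of 20414 coding genes lay within 1000 bases of GRCm38.p6 ends, against 3.36% of 21728 for GRCm39, so coordinates are given as GRCm38. Divided by the value of 1 read in its library, FPKM times length came out whole for 100.0% of values (tolerance 0.01), so reads or pairs could be recovered. The library sizes behind the deposited values matched median-ratio size factors of those reads.

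Genes averaging 1 FPKM or more were tested with limma 3.58.1 (R 4.3.3) on log2(FPKM + 1), with trend and robust moderation, two-sided, Benjamini-Hochberg over all genes tested, threshold 0.05; intervals are at 95%. The procedure was tested on simulated data, in which the share of false calls over all genes ran above the nominal level. That share was not split by expression level, so it bears on all calls given here. Acot6, Lpin1, Rxrg, Mrc1 and Asb4 had means below 5 FPKM. Alternatives were other pseudocounts, filters, scalings, limma settings, a replicate block, limma-voom on recovered reads and leaving out each library. Python 3.11.15 and Biopython 1.88 were used.

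The members and lists were chosen with earlier results of these data known. Named are the 10 genes, Wtap, locus neighbours, paralogs, nearest patterns, Ppara, Ppargc1a and, per list, up to 4 called genes in order of adjusted p, and the leading gene of the opposite direction. Neighbours are named where they overlap a member, belong to its family or were called. Those named only because they were called are Ints10 beside Lpl and Asb4 beside Pdk4. Both were lower, with log2 fold changes of -0.49 (adjusted p = 0.0351, limma) and -0.64 (adjusted p = 0.0299), beside 6.69% of all tested genes. Genes named outside this rule (Acot7, Acot9, Dgat1, Meox2, Hilpda, Cidea, Rxra, Pparg and markers) were chosen after their values were seen. Transcript sequences are from GENCODE M39 and promoters from RefSeq.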

Additional observations from a re-analysis of the deposited data

How the results depend on the processing

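Acot1 was called higher under all alternatives run. The number of the 10 genes called higher (3) was 1 with TPM scaling, with mitochondria-free scaling, when a log2 change of 1 or more was required and at an adjusted p under 0.01, and 5 with array weights. It was 1 to 6 with a library left out, 6 without Wtap-flox 1 and 1 on leaving out Wtap-flox 2 or 3 or Wtap-CKO 1. The number called lower (0, with Plin5 lower at an unadjusted p = 0.0184) was 1 with TPM, mitochondria-free and quantile scaling, array weights and limma-voom, and 0 to 1 with a library left out. Of the further lipid genes 2 were called higher, against 4 at a mean of at least 5 FPKM, 6 by limma-voom, 14 with array weights and 2 to 5 with a library left out. The 6 called lower became 14 with TPM and with mitochondria-free scaling, 12 with quantile normalization, 13 with array weights and 5 to 8 with a library left out. Of all genes 2086 were called, 1206 without a filter, 3732 with array weights, 2537 by limma-voom and 1189 to 2016 with a library left out. Called higher were 1245 as deposited, 992 at a mean of at least 5 FPKM, 1474 by limma-voom and 2056 with array weights. Called lower were 841 as deposited, 1601 with TPM, 1597 with mitochondria-free scaling, 1006 with quantile normalization and 1676 with array weights.

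Signs turned for Wtap with array weights (0.0076) and without Wtap-flox 3 (0.086) or Wtap-CKO 2 (0.047), over a range of -0.13 to 0.086 with a library left out, for Cd36 with TPM (-0.11), mitochondria-free (-0.12) and quantile scaling (-0.17) and without Wtap-CKO 1 (-0.011 to 0.18 with a library left out), and for Lpl without Wtap-CKO 3 (-0.11 to 0.0055). The cause was not tested.

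Libraries share only a replicate number: deviations of same-numbered libraries correlated at -0.22, -0.08 and -0.08. With the replicate block 1673 genes were called, and of the 10 genes 3 were higher and 0 lower (adjusted p = 0.00103 for Acot1, 0.0257 for Acot2 and 0.0329 for Plin2). With 3 hearts a group and the Wtap-flox spread of Ucp3, its interval allows changes from -0.79 to 1.93.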
